A study of Mus musculus with 18 samples.

Results

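The change from the early to the late 2-cell stage was followed in mouse embryos whose Echs1 had been knocked down. Echs1 encodes the mitochondrial enzyme that hydrates short-chain enoyl-CoAs, crotonyl-CoA among them, and crotonyl-CoA is the donor for histone crotonylation. The samples compared were those titled siEchs1 (a small interfering RNA against Echs1), 3 libraries at E2C (early 2-cell) and 3 at L2C (late 2-cell), which made 6 of the 18 samples of the series. Of the other 12 samples, 6 were siCon libraries (a control siRNA), 3 at E2C and 3 at L2C, and served for comparison. The remaining 6 were E2C embryos given acetate, crotonate or DMSO and were not used. Each library was made from a tube of 5 to 10 embryos by Smart-seq2, an oligo-dT method that primes on poly(A) tails, and was read as pairs of 150 nt. The labels give neither strain, age, siRNA sequence nor dose. They also do not say that replicates came from separate injections or litters, so p-values measure only the spread between these tubes, which may be technical.

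In the mouse, transcription from the embryo's own genome starts weakly in the zygote and rises in a large wave during the 2-cell stage. RNA stored by the oocyte is degraded in the same period, partly by deadenylation through the CCR4-NOT and PAN2-PAN3 complexes. A change in a poly(A)-primed library over this interval can therefore come from new synthesis, from decay or from a change in poly(A) tail length, and the libraries do not separate these. Genes of ribosome assembly, splicing and nucleotide synthesis are textbook members of the rising class. Oocyte-restricted transcripts such as Obox5, the Tcl1b and Omt2 families and Btg4 are members of the falling class.

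Values are deposited FPKM, fragments scaled by gene length and by the mapped total of the library, so levels compare between genes per length. Read counts were not given and low values did not fall on clear whole-read steps, so depth is unknown. Changes are given on the log2(FPKM + 1) scale as L2C minus E2C with the standard error of the fit, and they understate changes of low genes. A gene was called to rise or fall at a Benjamini-Hochberg adjusted p under 0.05 from limma over 17652 genes. Every group had 3 libraries, and replicate values are listed in the order 1, 2, 3 of the titles. The siEchs1 libraries summed to 708113 to 903186 FPKM and held 13531 to 14681 genes at 1 FPKM or more. Because FPKM of a tube are relative, fewer cells of a type and less RNA per cell cannot be told apart.

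E2C siEchs1 replicate 3 stood apart. Its Spearman correlation with E2C replicates 1 and 2 was 0.740 and 0.783 over the tested genes, against 0.930 between those replicates and 0.932 to 0.954 among the L2C siEchs1 libraries. The oocyte transcripts Zp3, a zona pellucida protein, and Mos, the meiotic kinase, show the same split. Zp3 was at 3071, 3622 and 35.9 FPKM in the E2C siEchs1 libraries and at 4409, 3188 and 2631 at L2C, whereas the siCon libraries lay between 28 and 93.7. Mos was at 676, 808 and 7.7 FPKM at E2C and at 683, 589 and 673 at L2C, and the siCon libraries stayed between 4.03 and 6.26. In these 2 genes replicate 3 lay near the siCon libraries and not near the other siEchs1 libraries. Over all tested genes its correlation with the E2C siCon libraries was 0.772 to 0.781, inside its range with E2C siEchs1 replicates 1 and 2. Those replicates correlated with the E2C siCon libraries at 0.764 to 0.775. To the L2C siCon libraries replicate 3 was closer than they were. It correlated with L2C siCon replicates 1, 2 and 3 at 0.724, 0.723 and 0.664. For E2C siEchs1 replicate 1 these values were 0.565, 0.562 and 0.527, and for replicate 2 they were 0.639, 0.635 and 0.599. Main counts below are given with this library and then without it.

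The knocked-down gene itself was not called between the stages. Echs1 (chr7:140105710-140116476, minus strand) was at 0.71, 5.88 and 3.82 FPKM in E2C siEchs1 and at 0.89, 4.32 and 4.25 in L2C siEchs1, a change of -0.03 ± 0.52 (adjusted p = 0.979). The siCon libraries had 30.5, 27.5 and 32.5 FPKM at E2C and 38.6, 39.2 and 24.4 at L2C. The siEchs1 libraries were below every siCon library at both stages, and replicate 1 was the lowest at each.

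Under Echs1 knockdown 2090 genes rose between the stages and 482 fell, which were 11.8% and 2.73% of the genes tested. The median change of all tested genes was 0.23 with all libraries and 0.15 without E2C replicate 3. Without that library 2556 genes rose (14.5%) and 897 fell (5.08%). In siCon, whose libraries are all different ones, 6326 genes rose (35.8%) and 2544 fell (14.4%), with a median of 0.51. The split of the siEchs1 calls rested on the scale: 81.3% of them were rises on the deposited values and 57.8% after quantile normalization, which gave 1075 rises and 785 falls. The siCon split moved from 71.3% to 49.7% rises in the same way. With the spread taken from the 6 siEchs1 libraries alone there were 516 rises and 50 falls, and 2027 and 634 without E2C replicate 3. In that fit of 6 libraries 92 of the 138 named genes called with all 12 libraries lost the call. The siEchs1 counts also depended on single L2C libraries. Leaving out L2C replicate 1 gave 1015 rises and 159 falls, replicate 2 gave 1261 and 262, and without replicate 3 there were 247 falls. In the fit of all 12 libraries, each call of a named gene below held when any 1 siRNA library was left out. Exceptions have a higher adjusted p or a lost call given beside them or for their group.

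Most rises under knockdown were also rises in siCon. Of the 2090 rising genes 1577 rose in siCon as well, which was 75.5% of the siEchs1 list and 24.9% of the siCon list, and 11 fell in siCon. Of the 482 falling genes 257 fell in siCon, 53.3% of the siEchs1 list and 10.1% of the siCon list, and 19 rose there. Without E2C siEchs1 replicate 3 the shared rises were 2086 of 2556 (81.6%, and 28.7% of the siCon list), and the shared falls were 569 of 897 (63.4%, and 17.4% of the siCon list), with 41 rising in siCon. The remaining 502 rising and 206 falling genes were not called in siCon. Across the 17652 genes the stage change in siEchs1 and that in siCon had a Pearson r of 0.51 (Spearman 0.50), and 0.60 (Spearman 0.61) without E2C replicate 3. Genes are not independent replicates, so these are descriptions.

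**Figure D1:**
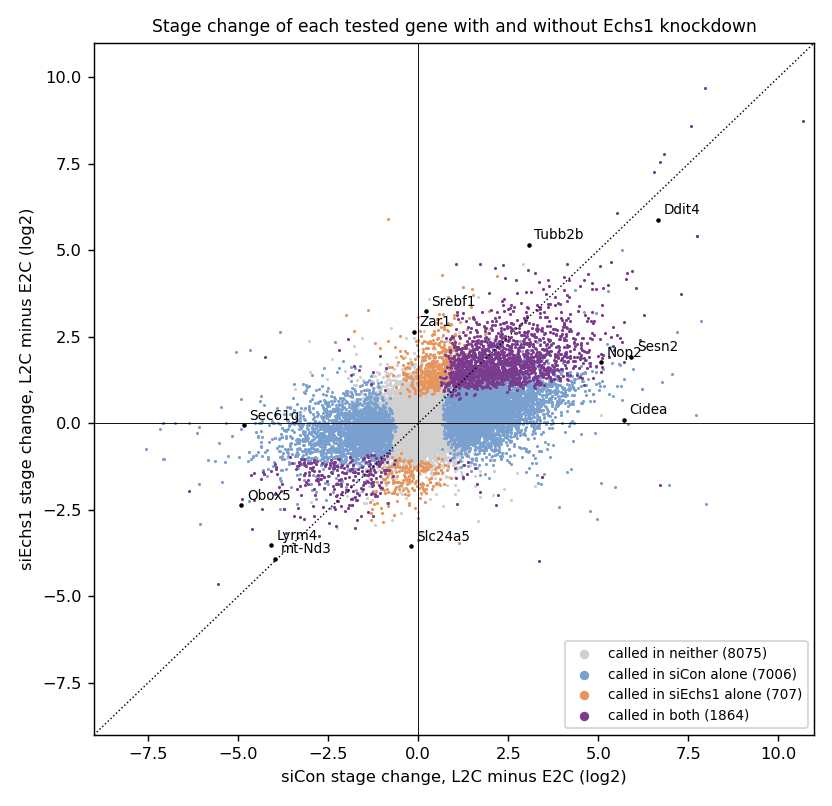
Stage change of each of the 17652 tested genes on the log2(FPKM + 1) scale, siCon on the x axis and siEchs1 on the y axis, coloured by which contrast called the gene, with the line of equal change dotted. Of the 6326 genes that rose in siCon, 1962 had a called smaller change in siEchs1, and they lie below the dotted line. The siCon change enters both of these calls.

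Genes called in siCon with a log2 change of at least 1 were followed into the siEchs1 libraries, whose levels do not enter the siCon changes. They do enter the filter and the shared spread, and without E2C siEchs1 replicate 3 the siCon calls numbered 7256 rises and 3276 falls. The 5963 such rising genes had a median change of 1.97 in siCon and 0.68 in siEchs1, with 25% of them at or below 0.18. Of these, 5001 (83.9%) were higher at L2C, 1498 (25.1%) were called to rise and 18 to fall, beside 11.8% and 2.73% of all genes. The 2330 falling genes had a median of -1.83 in siCon and -0.34 in siEchs1. Of these, 1668 (71.6%) were lower at L2C, 243 (10.4%) were called to fall and 9 to rise. Without E2C replicate 3 the rising genes had a median of 0.70 and 1869 calls, and the falling genes a median of -0.56 and 443 calls. Chosen and read again with 1 library left out, the rises numbered 742 without L2C siEchs1 replicate 1 and 942 without replicate 2. The falls numbered 515 without E2C siEchs1 replicate 3 and 95, 123 and 148 without L2C siEchs1 replicates 1, 2 and 3. A choice made on siCon favours large siCon values, so the reverse choice was read too. The 2036 genes that rose in siEchs1 by at least 1 had medians of 1.72 in siEchs1 and 1.91 in siCon, and the 468 that fell had -1.53 and -1.07.

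The levels of the genes chosen in siCon were also read in single libraries. The rising genes had a median level of 1.58 to 1.66 on the log2 scale in the E2C siCon libraries and 3.96 to 4.02 at L2C. In siEchs1 they stood at 1.79, 2.05 and 2.23 at E2C and at 3.22, 3.05 and 2.70 at L2C. The siEchs1 stages did not overlap, and every siEchs1 library lay between the siCon stages. The genes were chosen for their siCon change, so the choice itself sets the siCon stages apart and favours such a place. Levels of genes chosen in siEchs1 were not read. The falling genes were at 4.79 to 4.87 in E2C siCon and 2.39 to 2.93 in L2C siCon. In siEchs1 they were at 4.63, 4.27 and 3.85 at E2C and at 3.71, 3.88 and 3.93 at L2C. Here E2C replicate 3 overlapped the L2C libraries.

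**Figure D2:**
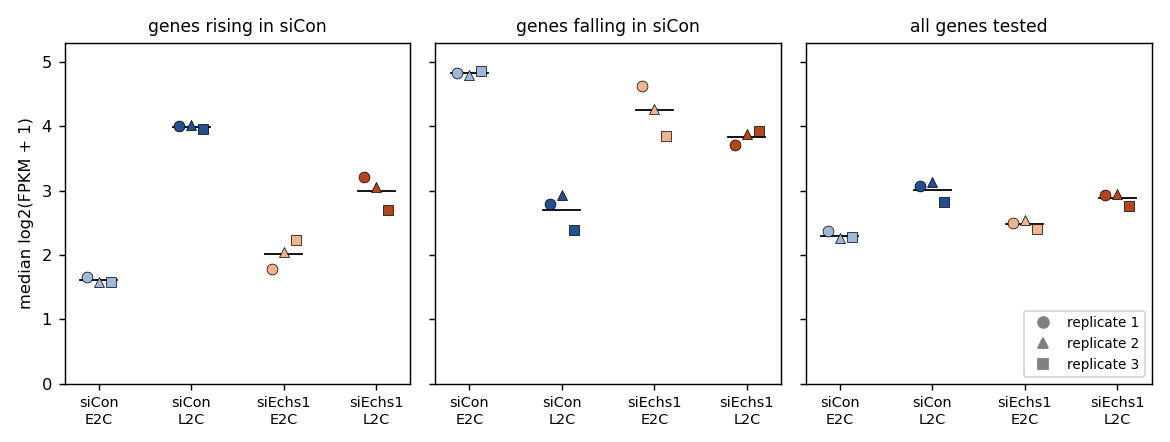
Median log2(FPKM + 1) in each library of the 5963 genes that rose and the 2330 that fell in siCon by at least 1, and of all genes tested; points are replicates and bars the mean of 3. For the rising and falling genes the siEchs1 libraries lie between the siCon stages, which the choice of genes by their siCon change favours. Rising genes at L2C were at 2.70 to 3.22 in siEchs1 against 3.96 to 4.02 in siCon.

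The test of the difference between the arms called 2042 genes (11.6%) with a lower stage change in siEchs1 than in siCon and 997 (5.65%) with a higher one. Without E2C replicate 3 these were 2772 (15.7%) and 1289 (7.3%). The share of higher differences among these calls was 32.8%, and 50.7% after quantile normalization. Of the 2042, 1962 were genes that rose in siCon, and of the 997, 849 were genes that fell in siCon. The siCon change enters both the siCon calls and the difference, so this overlap is in part built in. Among the genes called in siEchs1, 225 of the 2090 rises were smaller than in siCon and 135 larger, and 51 of the 482 falls were smaller and 69 larger. Without E2C siEchs1 replicate 3 these were 397 and 183 of the rises and 140 and 151 of the falls. These counts moved with single libraries. Leaving out L2C siEchs1 replicate 3 gave 831 lower and 460 higher, and L2C siEchs1 replicate 2 gave 609 higher. Without E2C siCon replicates 1, 2 or 3 there were 639, 589 and 495 higher, and without replicates 2 or 3 there were 1205 and 1071 lower. Without L2C siCon replicate 3 there were 652 higher, and without E2C siEchs1 replicate 1 there were 1517.

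The rule for the largest rises gave 6 mitochondrial tRNAs, mt-Ts1, mt-Tq, mt-Tt, mt-Tm, mt-Tp and mt-Te. Each was listed at 0 in all 3 E2C siEchs1 libraries and above 0 in all 3 at L2C, so no fold is given. Of the 22 mitochondrial tRNA genes, 0, 0 and 1 were above 0 in the E2C siEchs1 libraries and 9, 17 and 17 at L2C. In siCon the numbers were 0, 0 and 0 at E2C and 0, 16 and 17 at L2C, so 1 L2C library had none. No mitochondrial tRNA was called without E2C replicate 3, where the lowest limma adjusted p among them was 0.0722.

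Without E2C replicate 3 the same rule gave nuclear genes, each also called with all libraries. Ddit4 (chr10:59949669-59951834, minus strand), a stress-induced inhibitor of the mTORC1 kinase, had the largest change of these. It was at 0.97, 1.06 and 5.16 FPKM in E2C siEchs1 and at 202, 131 and 190.3 at L2C, and in siCon at 0.3, 0.77 and 0.77 and then 174, 109 and 220.2. The stages did not overlap in either arm, and the L2C levels of the arms did. The change was 5.88 ± 0.45 in siEchs1 (adjusted p = 4.21e-05) and 6.66 in siCon, a difference of -0.78 (adjusted p = 0.408).

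Raly, an hnRNP-type protein, went from 2.25, 4.25 and 20 FPKM to 104, 103 and 109, a change of 3.90 ± 0.52 (adjusted p = 0.000833). Its E2C replicate 3 was the highest of the E2C libraries and still below every L2C library. U2af2 (chr7:5062143-5079938, plus strand), named as a member of the splicing list, which recognises the 3′ splice site, was at 5.53, 5.6 and 10.2 FPKM and then 192, 122 and 129, a change of 4.22 ± 0.33 (adjusted p = 4.25e-05) beside 4.06 in siCon. Its difference between the arms was 0.16 ± 0.47 (adjusted p = 0.841). Eif4e1b, an oocyte form of the cap-binding protein, rose from 36.4, 52.4 and 156 to 1435, 1059 and 1121 FPKM (4.14 ± 0.48, adjusted p = 0.000344).

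Tubb2b and Prr7, also named by the rule for the largest rises, rose by more under knockdown than in siCon. Tubb2b (chr13:34126748-34130466, minus strand), a beta-tubulin, was at 2.97, 5.31 and 7.02 FPKM at E2C and at 319.5, 154 and 184 at L2C in siEchs1, against 1.65, 0.7 and 1.96 and 16.7, 24.7 and 16.5 in siCon. All L2C siEchs1 values were above all L2C siCon values. The change was 5.16 ± 0.39 (adjusted p = 4.21e-05), and 2.09 larger than in siCon (adjusted p = 0.0235, and 0.0636 without E2C siCon replicate 3). Prr7 rose from 0.12, 0.48 and 3 to 51.1, 32.9 and 51.3 FPKM, by 4.59 ± 0.44 (adjusted p = 0.000109), with a difference of 2.24 (adjusted p = 0.0288, and 0.0763 without L2C siEchs1 replicate 3).

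The falling genes were fewer and included genes of mitochondria and of the oocyte. Lyrm4 (chr13:35978395-36117526, minus strand), a factor of iron-sulfur cluster assembly, was at 181, 142 and 165 FPKM in E2C siEchs1 and at 9.99, 13.1 and 17.2 at L2C. In siCon it was at 326, 299 and 270.4 and then 12.4, 27.7 and 13.5. The change was -3.53 ± 0.34 (adjusted p = 0.000109) in siEchs1 and -4.08 in siCon, and the difference was 0.55 ± 0.48 (adjusted p = 0.45). Slc24a5 (chr2:125068124-125088677, plus strand), a cation exchanger known from pigment cells, was at 29.5, 7.45 and 6.22 FPKM at E2C and at 0.04, 0.12 and 0 at L2C. It was at 0, 0 and 0.9 FPKM in E2C siCon and at 0.11, 0 and 0.12 in L2C siCon, so only the E2C siEchs1 libraries were above 1 FPKM. Its stage change was -3.55 ± 0.47 (adjusted p = 0.000745) and differed from siCon by -3.34 (adjusted p = 0.00802).

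Rpgrip1, a protein of the photoreceptor cilium, fell from 48.9, 16.3 and 10.5 to 2.86, 3.88 and 1.12 FPKM in siEchs1 (-2.65 ± 0.49, adjusted p = 0.0044). Lrrc8a, a subunit of the volume-regulated anion channel, was at 63.1, 78 and 10.9 FPKM and then 8.58, 9.58 and 7.85 (-2.02 ± 0.60, adjusted p = 0.0399, and 0.123 without E2C replicate 2). Bc1, a small noncoding RNA, was at 39.6, 76.7 and 12.1 FPKM and then 3.63, 6.88 and 14.6 in siEchs1 and at 0 in every E2C siCon library. Its fall was -2.06 ± 0.64 (adjusted p = 0.0487, and 0.194 without L2C replicate 1) and differed from siCon by -4.28 (adjusted p = 0.0107). In Lrrc8a and Bc1 the E2C siEchs1 replicate 3 was far below replicates 1 and 2.

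**Figure D3:**
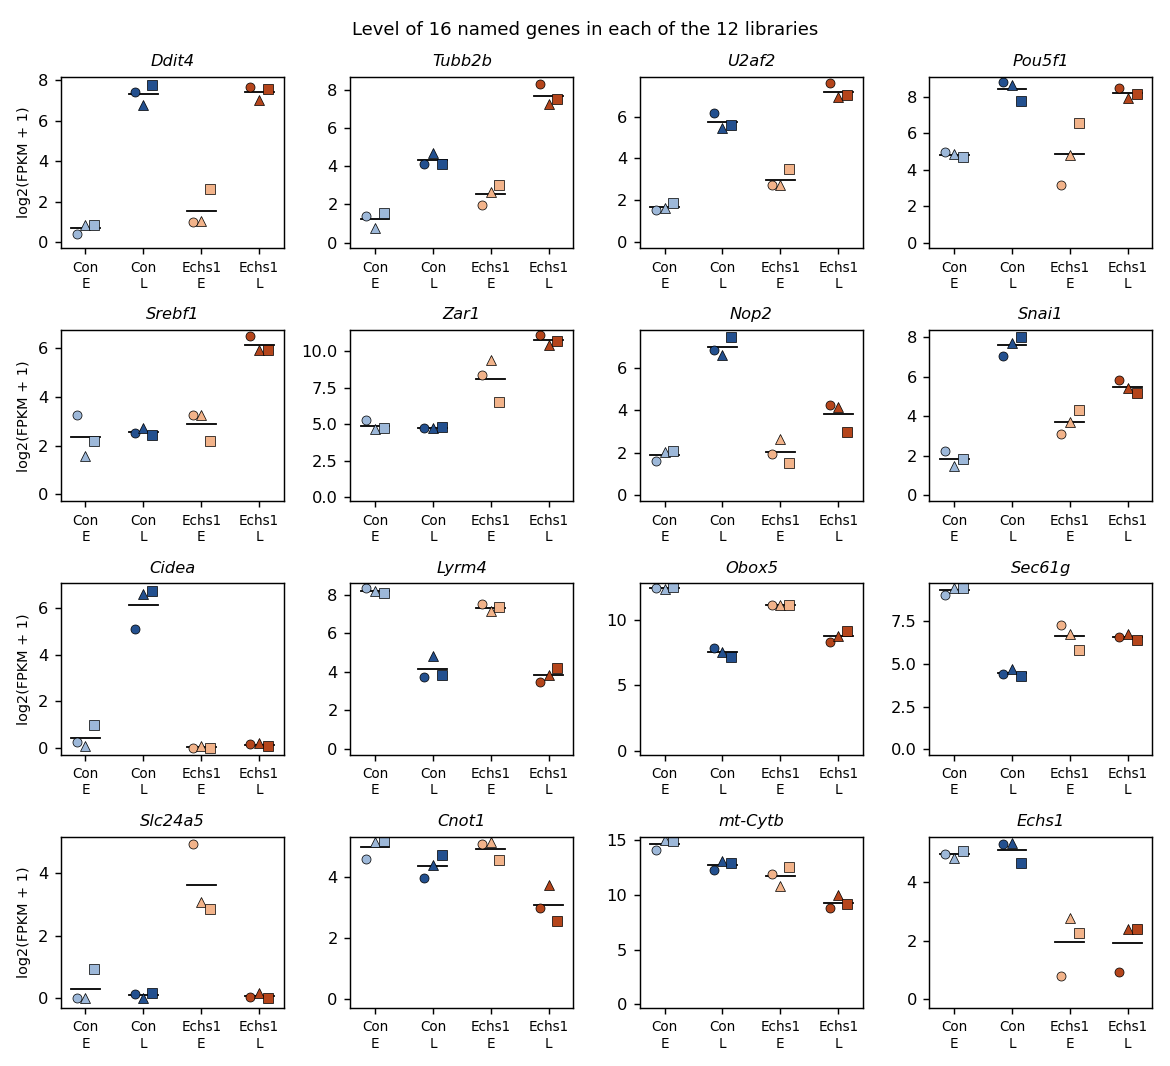
Level of 16 named genes in each library as log2(FPKM + 1), siCon (Con) and siEchs1 (Echs1) at E2C (E) and L2C (L); circles, triangles and squares are replicates 1, 2 and 3 and bars the mean of 3. Ddit4, U2af2 and Lyrm4 changed in both arms with no called difference, while Cidea, Slc24a5 and Srebf1 had called differences.

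Among the mitochondrially encoded protein genes 9 of 13 fell in siEchs1 (2.73% of all genes tested fell) and 0 rose, with a median of -2.49. Without E2C replicate 3 this was 8 of 13 and -1.72, and in siCon it was 6 of 13 and -1.29. For this list and those below, 14.5% of all genes rose and 5.08% fell without E2C replicate 3. In siCon these shares were 35.8% and 14.4%. The difference was called lower for 15.7% of all genes and higher for 7.3% without E2C replicate 3. mt-Cytb, a subunit of complex III, was at 3749.7, 1758 and 6016 FPKM at E2C and at 430.4, 1004 and 552 at L2C, a change of -2.46 ± 0.47 (adjusted p = 0.00484). mt-Nd3, of complex I, fell from 515, 259.5 and 1629.6 to 16.8, 86.8 and 39.9 FPKM (-3.91 ± 0.71, adjusted p = 0.00388), beside -3.97 in siCon. No member passed the test of the difference between the arms. The share of all FPKM that came from the mitochondrial genome was 2.82%, 1.69% and 10.3% in the E2C siEchs1 libraries and 0.831%, 2.27% and 1.55% at L2C. The means were 4.95% ± 4.70 and 1.55% ± 0.718 (SD, n = 3 each), and a two-sided exact permutation test gave p = 0.2, where 0.1 is the smallest p possible. The difference was -3.40 percentage points, and -0.707 without E2C replicate 3. The siCon shares, 15.3% ± 2.02 and 9.71% ± 1.88 (SD, n = 3 each), were higher at both stages.

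Genes of ribosome assembly were called to rise in both arms. Of 66 tested members of the ribosome biogenesis list 13 rose (11.8% of all genes did) and 1 fell, with a median of 0.71. Without E2C replicate 3 the counts were 15 and 1, and in siCon 51 rose (35.8% of all genes did) with a median of 1.96. The difference was called lower for 19 of the 66 (11.6% of all genes) and higher for 0 (5.65% of all genes), and without E2C replicate 3 for 36 and 0. Nop2 (chr6:125131909-125144753, plus strand), an rRNA methyltransferase, was at 2.79, 5.31 and 1.81 FPKM in E2C siEchs1 and at 18.1, 16.9 and 6.77 at L2C, against 2.03, 3.04 and 3.21 and 114, 97.1 and 175 in siCon. It rose by 1.77 ± 0.43 (adjusted p = 0.0162, and 0.0804 without L2C replicate 1), and its difference was -3.31 (adjusted p = 0.00621). All 3 L2C siEchs1 values were below all 3 of L2C siCon. Rrp9, a U3 snoRNP protein, rose by 1.74 ± 0.38 (adjusted p = 0.0102) in siEchs1 and by 4.57 in siCon, a difference of -2.83 (adjusted p = 0.00716). Gar1, of the H/ACA snoRNPs, rose from 8.5, 4.03 and 4.6 to 50, 31.9 and 39.2 FPKM (2.66 ± 0.41, adjusted p = 0.0016) beside 2.31 in siCon, with a difference of 0.35 ± 0.58 (adjusted p = 0.71). Fbl (fibrillarin), Noc2l and Pes1 rose too, by 2.60 ± 0.33, 2.75 ± 0.43 and 2.23 ± 0.38, beside 4.11, 4.14 and 3.20 in siCon. The difference was called for Fbl (-1.52, adjusted p = 0.0407, and 0.114 without L2C siEchs1 replicate 3). It was not called for Noc2l (-1.39, adjusted p = 0.129) or Pes1 (-0.96, adjusted p = 0.232).

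Of the 79 cytosolic ribosomal protein genes 3 rose, Rpl8, Rpl29 and Rps18 (3.8%, beside 11.8% of all genes), and 0 fell, with 3 and 2 without E2C replicate 3. Rps18 changed by 2.10 ± 0.59 (adjusted p = 0.0315, and 0.103 without L2C replicate 1). Rpl8 went from 74.1, 90.5 and 87.3 to 194, 170.3 and 147 FPKM (1.01 ± 0.26, adjusted p = 0.0242, and 0.102 without L2C replicate 1), and its difference from siCon was -2.22 (adjusted p = 0.0048). Rpl29 went the opposite way to siCon: it rose by 1.49 ± 0.40 in siEchs1 (adjusted p = 0.0281, and 0.0914 without L2C replicate 2) and changed by -1.25 in siCon (adjusted p = 0.0215). The difference was 2.73 (adjusted p = 0.0103). Ribosomal protein genes have many processed pseudogenes that can share their reads, so these values are uncertain. The median of the list was 0.81 with E2C replicate 3 and -0.04 without it.

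Of 50 tested splicing genes 14 rose (28%) and 5 fell (10%), beside 11.8% and 2.73% of all genes, 16 and 7 without E2C replicate 3, and 30 and 7 in siCon. Sf3a2, of the U2 snRNP, rose from 0.89, 2.3 and 2.94 to 67.1, 51.6 and 55.9 FPKM, by 4.34 ± 0.36 (adjusted p = 4.25e-05) beside 3.24 in siCon. Prpf19, a spliceosomal ubiquitin ligase, rose by 3.79 ± 0.48 (adjusted p = 0.000623). Snrpf, a core Sm protein, fell from 234, 144 and 414 to 44.2, 33.7 and 32.9 FPKM, a change of -2.69 ± 0.40 in siEchs1 (adjusted p = 0.00136) and of -3.46 in siCon. None of these 3 passed the test of the difference. Over the list the difference was called lower for 9 (18%) and higher for 1 (2%), and for 16 and 4 without E2C replicate 3, beside 11.6% and 5.65% of all genes with all libraries.

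The promoters of 4 genes show genes of each kind: Ddit4 rose in both arms, Nop2 rose by less under knockdown, Snrpf fell in both and Sec61g, described below, fell in siCon without a called fall in siEchs1. The sequences are RefSeq's for GRCm38.p6, written 5′ to 3′ on the gene's strand and ending before the annotated start, and capitals mark GGGCGG or its reverse complement (the GC box).
Ddit4: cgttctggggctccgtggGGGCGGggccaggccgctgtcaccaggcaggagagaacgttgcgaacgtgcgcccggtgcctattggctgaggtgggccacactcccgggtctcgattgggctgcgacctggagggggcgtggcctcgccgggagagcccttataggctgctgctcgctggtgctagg
Nop2: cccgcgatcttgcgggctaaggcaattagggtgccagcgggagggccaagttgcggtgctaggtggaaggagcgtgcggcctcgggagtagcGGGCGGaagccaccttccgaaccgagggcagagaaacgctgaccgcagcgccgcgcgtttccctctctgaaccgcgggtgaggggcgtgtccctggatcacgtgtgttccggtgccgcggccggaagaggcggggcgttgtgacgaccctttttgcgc
Snrpf: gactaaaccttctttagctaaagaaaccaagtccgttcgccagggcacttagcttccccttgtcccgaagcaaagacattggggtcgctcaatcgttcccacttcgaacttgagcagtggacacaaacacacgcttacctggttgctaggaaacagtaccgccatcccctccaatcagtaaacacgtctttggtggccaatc
Sec61g: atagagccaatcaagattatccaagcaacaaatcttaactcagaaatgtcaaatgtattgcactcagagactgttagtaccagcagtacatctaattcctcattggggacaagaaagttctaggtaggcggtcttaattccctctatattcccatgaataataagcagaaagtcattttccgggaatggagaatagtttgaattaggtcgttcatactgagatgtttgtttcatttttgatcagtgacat
They lie at chr10:59951835-59952020 (minus strand), chr6:125131633-125131882 (plus strand), chr10:93589707-93589908 (minus strand) and chr11:16508485-16508734 (minus strand). Their GC contents were 69.9%, 67.6%, 50.5% and 36.8%, and GC boxes numbered 1, 1, 0 and 0. Of all 32851 mouse promoter windows of 250 bases, 32.7% hold a GC box. Only 78.6% of the tested protein-coding genes had a window by symbol, so motif shares of rising and falling genes were not compared.

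GC content of the transcript itself ran with the stage change in both arms. The longest GENCODE transcript of the 1827 rising protein-coding genes had a median GC content of 54.9%, that of the 369 falling genes 44.3%, and that of all 13222 tested 49.4%. Split into 5 bins of equal size by GC content, the median siEchs1 change was -0.18, 0.06, 0.30, 0.59 and 0.90 from the lowest bin (31.0 to 43.7%) to the highest (55.3 to 74.7%). In siCon the medians were -0.21, 0.15, 0.61, 1.13 and 1.64. The lowest bin held 48 rises and 164 falls in siEchs1 and the highest 857 and 10. The Spearman correlation of GC content with the change over the 13222 genes was 0.46 in siEchs1, 0.47 without E2C replicate 3 and 0.45 in siCon. Genes share libraries here, and a part of cDNA amplification or sequencing in this relation was not tested.

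**Figure D4:**
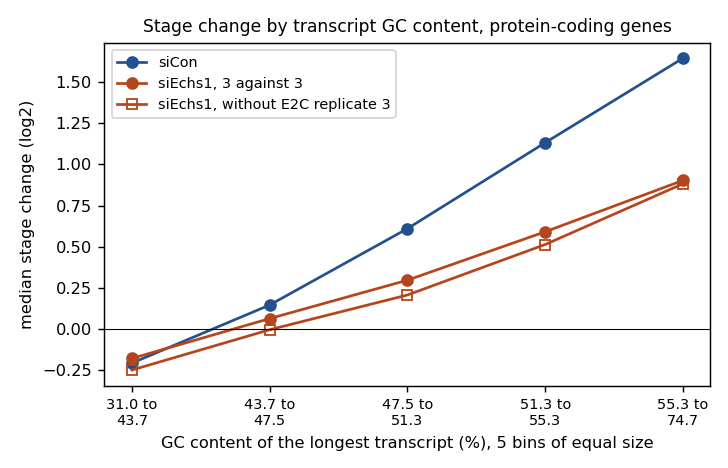
Median stage change (log2) of 13222 protein-coding genes in 5 bins by GC content of the longest transcript, in siCon, in siEchs1 with 3 against 3 libraries, and in siEchs1 without E2C replicate 3. All 3 series rise from bin to bin, from -0.18 to 0.90 in siEchs1 and from -0.21 to 1.64 in siCon.

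Of 35 tested genes of histone crotonylation and its donor 9 rose (25.7%) and 2 fell (5.71%), beside 11.8% and 2.73% of all genes (9 and 2 also without E2C replicate 3), with a median of 0.61, beside 14 and 0 in siCon and a median of 1.04. Kat5 (TIP60), an acetyltransferase, was at 2.29, 3.58 and 3.12 FPKM at E2C and at 32.3, 30.5 and 33.2 at L2C, a rise of 3.06 ± 0.31 (adjusted p = 0.000169) beside 2.23 in siCon. Kat2a (GCN5) rose from 5.45, 7.08 and 5.9 to 33.1, 23.6 and 24.9 FPKM (1.97 ± 0.29, adjusted p = 0.00126). Hdac3, which takes acetyl and crotonyl groups off histones, was at 5.83, 6.99 and 4.81 and then 28.8, 16.6 and 16.8 FPKM (1.63 ± 0.34, adjusted p = 0.00746). Mllt1 (ENL), a YEATS-domain reader, rose by 1.47 ± 0.32 (adjusted p = 0.0101). Sirt1, a deacylase, went the opposite way, from 46.4, 18.7 and 15.1 to 7.14, 9.97 and 7.39 FPKM (-1.44 ± 0.41, adjusted p = 0.0333, and 0.114 without L2C replicate 1), and its difference from siCon was -2.10 (adjusted p = 0.0277, and 0.0716 without L2C siEchs1 replicate 3). Gcdh, which makes crotonyl-CoA from glutaryl-CoA, changed by 1.27 ± 0.36 (adjusted p = 0.0335), a call lost without E2C replicate 3 (adjusted p = 0.0552) and without L2C replicate 1 (adjusted p = 0.146).

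Of 59 tested chromatin modifiers 9 rose (15.3%) and 4 fell (6.78%), beside 11.8% and 2.73% of all genes, 18 and 3 without E2C replicate 3, and 34 and 2 in siCon. The difference was called lower for 12 (20.3%) and higher for 0 (0%), and for 16 and 0 without E2C replicate 3, beside 11.6% and 5.65% of all genes with all libraries. Prmt1, the main arginine methyltransferase, rose from 1.76, 1.72 and 2.53 to 97.1, 30.1 and 28.6 FPKM, by 3.91 ± 0.45 (adjusted p = 0.000328), beside 6.04 in siCon. Setd1a, an H3K4 methyltransferase, rose by 2.17 ± 0.38 (adjusted p = 0.0034), and Chaf1a, of the histone chaperone CAF-1, by 1.43 ± 0.30 (adjusted p = 0.00838). Setd2, the H3K36 methyltransferase, fell in siEchs1 from 53.6, 45.9 and 31.5 to 13.1, 21.2 and 12.7 FPKM (-1.42 ± 0.32, adjusted p = 0.0118, and 0.0573 without L2C replicate 1). In siCon it was at 55.8, 51.9 and 48.3 and then 62.8, 65.8 and 97.7 FPKM, and the difference was -1.93 (adjusted p = 0.0164, and 0.0517 without L2C siEchs1 replicate 3). Kdm5b, an H3K4 demethylase, was at 1.68, 3.81 and 6.66 and 2.14, 5.24 and 1.17 FPKM in siEchs1 and at 9.57, 10.4 and 11.4 and 41.6, 31.6 and 62.8 in siCon, a difference of -2.37 (adjusted p = 0.0283, and 0.079 without L2C siEchs1 replicate 3).

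Of the 27 histone genes 5 rose (18.5%) and 4 fell (14.8%) in siEchs1, beside 11.8% and 2.73% of all genes, with the same counts without E2C replicate 3. H2afx, the variant phosphorylated at DNA breaks, rose from 32.3, 37.2 and 9.26 to 152, 146 and 152 FPKM (2.68 ± 0.45, adjusted p = 0.00255). The linker histone gene H1fx was at 0.38, 0 and 0 FPKM and then 81.8, 8.38 and 16.8 (4.43 ± 0.73, adjusted p = 0.00223), with L2C replicate 1 the highest. Hist1h4d, a replication-dependent H4 gene, fell from 5.98, 7.5 and 3.09 to 0.59, 0.73 and 0.88 FPKM (-1.85 ± 0.34, adjusted p = 0.00419). Replicative histone mRNAs mostly lack poly(A) tails, so an oligo-dT library sees them only in part.

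Of 92 tested oocyte transcripts 18 fell (19.6%) and 11 rose (12%) in siEchs1, beside 2.73% and 11.8% of all genes, 31 and 14 without E2C replicate 3, and 40 and 7 in siCon, and the median was 0.14, -0.49 and -1.06 in that order. The difference was called lower for 3 (3.26%) and higher for 17 (18.5%), and for 4 and 27 without E2C replicate 3, beside 11.6% and 5.65% of all genes with all libraries. Obox5 (chr7:15750131-15759800, plus strand), an oocyte homeobox gene, was at 2175, 2169 and 2172 FPKM in E2C siEchs1 and at 305, 432 and 555 at L2C, against 5404, 5114 and 5756 and 223, 183 and 143 in siCon. The siEchs1 stages did not overlap, and both lay inside the range of the siCon stages. The fall was -2.37 ± 0.29 (adjusted p = 0.000461) in siEchs1 and -4.90 in siCon, a difference of 2.53 (adjusted p = 0.00386). Omt2b and Tcl1b1 fell in siEchs1 (-1.92 ± 0.32 and -1.49 ± 0.29) and in siCon (-1.94 and -1.39), with differences of 0.02 ± 0.45 and -0.10 ± 0.41. Obox, Omt2 and Tcl1b genes are families of near copies that share reads, so single members are uncertain. Btg4, the oocyte adaptor of CCR4-NOT, was at 2568, 2381 and 3186 FPKM and then 1190.4, 1279.9 and 1708 in siEchs1 (-0.97 ± 0.38, adjusted p = 0.114) and changed by -2.87 in siCon. The difference was 1.91 (adjusted p = 0.0305, and 0.0852 without L2C siEchs1 replicate 3).

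The share of oocyte transcripts that rose was near that of all genes, and these were among them. Zar1 (chr5:72576806-72581254, minus strand), an oocyte RNA-binding protein, was at 334, 670.4 and 89.1 FPKM in E2C siEchs1 and at 2195, 1334 and 1684 at L2C, while no siCon library was above 37.4. The rise was 2.64 ± 0.56 (adjusted p = 0.00841) and differed from siCon by 2.77 (adjusted p = 0.0313, and 0.0734 without E2C siCon replicate 1). Pabpc1l, the oocyte poly(A)-binding protein, was at 38.9, 76.7 and 92.3 FPKM and then 219, 202 and 217, against 14.6, 18.4 and 15.1 and 11.3, 15.1 and 9.58 in siCon. It rose by 1.69 ± 0.34 (adjusted p = 0.0066), with a difference of 2.10 (adjusted p = 0.0147). Gpr3, the receptor that holds meiotic arrest, rose in siEchs1 by 2.52 ± 0.49 (adjusted p = 0.00531) and in siCon by 3.97. Zp3, Mos and Gdf9 were not called: their changes were 2.16 ± 1.26, 1.95 ± 1.24 and 1.82 ± 0.67 with E2C replicate 3 and 0.00, -0.19 and 0.78 without it.

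Of 45 tested genes of mRNA decay 9 rose (20%) and 2 fell (4.44%), beside 11.8% and 2.73% of all genes, the falls being Pan3 and Cnot1, with 12 and 3 without E2C replicate 3. Pan3, a subunit of the PAN2-PAN3 deadenylase, fell from 392, 156 and 380.5 to 49.1, 59.6 and 51.3 FPKM (-2.40 ± 0.36, adjusted p = 0.00143) beside -2.64 in siCon. Cnot1, the scaffold of CCR4-NOT, went from 33.2, 34.7 and 22.5 to 6.88, 12.4 and 4.93 FPKM (-1.84 ± 0.37, adjusted p = 0.00647), while in siCon it changed by -0.62 (adjusted p = 0.18). Its difference did not pass the test (-1.22 ± 0.52, adjusted p = 0.122). Tob2, a deadenylation adaptor, rose from 14.4, 15.1 and 26.2 to 82.5, 76.5 and 74.6 FPKM (2.06 ± 0.30, adjusted p = 0.0011), and Lsm14b, an oocyte RNA-granule protein, by 2.48 ± 0.43 (adjusted p = 0.003).

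Of 52 genes listed as transient at the 2-cell stage 9 fell (17.3%) and 2 rose (3.85%) in siEchs1 (median -0.40), beside 2.73% and 11.8% of all genes. In siCon the counts were 9 and 18 (median 0.92). The siEchs1 falls include Tcl1b3, also counted among the oocyte transcripts, and Obox1 (adjusted p = 0.0328, and 0.128 without L2C replicate 1). Obox1 fell in siCon from a mean of 2454 to 102 FPKM. No earlier stage was among the samples, so where the listed genes peak was not tested. Without E2C replicate 3 the siEchs1 counts were 9 and 7 (median -0.02). The median was also near 0 without L2C replicate 3. Zscan4f was at 52.6, 92.7 and 72.8 FPKM at E2C and at 14.1, 23.7 and 12.4 at L2C in siEchs1, and at 293, 258 and 338 and 64.5, 46.2 and 75.2 in siCon. The siEchs1 stages did not overlap, and the fall was -2.07 ± 0.34 (adjusted p = 0.00214) beside -2.26 in siCon. Tcstv3, another gene of this list, changed by -1.95 ± 0.40 (adjusted p = 0.0068) beside -1.98. Tdpoz4 rose from 1.03, 1.47 and 5.8 to 13.8, 44.6 and 10.5 FPKM (2.61 ± 0.53, adjusted p = 0.00704), with a difference from siCon of -2.58 (adjusted p = 0.035, and 0.0948 without L2C siEchs1 replicate 3). Zscan4 and Tdpoz genes are also families of near copies. The summed level of 7 markers of the 2-cell embryo was 584.8 to 903 FPKM in E2C siEchs1 and 236 to 338.5 at L2C, against 1718 to 1888 and 842 to 1229 in siCon.

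Of 28 upstream factors of genome activation 3 rose (10.7%) and 4 fell (14.3%) in siEchs1, beside 11.8% and 2.73% of all genes. Without E2C replicate 3 the counts were 7 and 5 (25% and 17.9%), beside 14.5% and 5.08% of all genes. In siCon they were 16 and 4 (57.1% and 14.3%), beside 35.8% and 14.4%. The falls in siEchs1 included Obox5, described above. Nr5a2, an orphan nuclear receptor, rose from 13.5, 8.79 and 9.81 to 34.9, 42.2 and 28.8 FPKM (1.64 ± 0.31, adjusted p = 0.00484). Ctcf, the insulator protein, rose by 1.99 ± 0.33 (adjusted p = 0.00214) and by 2.00 in siCon, and Usf1 by 1.80 ± 0.36 (adjusted p = 0.00657). Of 37 lineage and pluripotency genes 2 rose (5.41%, beside 11.8% of all genes) in siEchs1, Pou5f1 and Lin28a, and 7 rose without E2C replicate 3, against 27 in siCon. The difference was called lower for 12 (32.4%) and higher for 1 (2.7%), and for 13 and 1 without E2C replicate 3, beside 11.6% and 5.65% of all genes with all libraries. Pou5f1 (chr17:35506018-35510772, plus strand), the pluripotency factor OCT4, was at 8.1, 27.2 and 93 FPKM and then 364, 248 and 287 in siEchs1 and at 30.3, 27.9 and 24.9 and then 449, 405 and 222 in siCon. The L2C levels of the arms overlapped, and the rise was 3.36 ± 0.63 (adjusted p = 0.00474) beside 3.59. Lin28a, an RNA-binding protein, rose by 2.80 ± 0.46 (adjusted p = 0.00207) beside 3.58. Klf5, a trophectoderm factor, had a difference of -2.47 (adjusted p = 0.0151), at 4.77, 2.76 and 1.66 FPKM in L2C siEchs1 against 48.2, 42.5 and 38.3 in L2C siCon.

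Of 23 tested p53 response genes 5 rose (21.7%) and 0 fell (0%) in siEchs1, beside 11.8% and 2.73% of all genes, with 6 and 1 without E2C replicate 3 and 17 and 2 in siCon, and the difference was called lower for 9 (39.1%) and higher for 0 (0%), and for 10 and 0 without E2C replicate 3, beside 11.6% and 5.65% of all genes with all libraries. Gadd45a, a growth arrest gene, rose from 1.31, 1.41 and 2.48 to 18.6, 12.1 and 8.59 FPKM in siEchs1 (2.33 ± 0.34, adjusted p = 0.00114) and from 6.41, 8.4 and 6.54 to 164, 162 and 230.4 in siCon, a difference of -2.18 (adjusted p = 0.0119). Sesn2, a sensor of leucine and an inhibitor of mTORC1, was at 0.44, 1.11 and 4.43 FPKM and then 11.3, 13.4 and 4.11 in siEchs1, against 1.38, 1.36 and 1.15 and 128, 113 and 181 in siCon. Its rise was 1.93 ± 0.50 (adjusted p = 0.0228, and 0.096 without L2C replicate 1), and the difference -3.99 (adjusted p = 0.00562). Of 31 ATF4 and unfolded protein response genes 9 rose (29%) and 0 fell (0%) (12 and 0 without E2C replicate 3), against 18 and 1 in siCon. Slc7a5, the large neutral amino acid transporter, rose by 2.24 ± 0.35 (adjusted p = 0.00163), and Hspa5 (BiP), the chaperone of the endoplasmic reticulum, from 72.2, 107 and 44.5 to 252, 289.5 and 217 FPKM (1.83 ± 0.32, adjusted p = 0.0034).

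**Figure D5:**
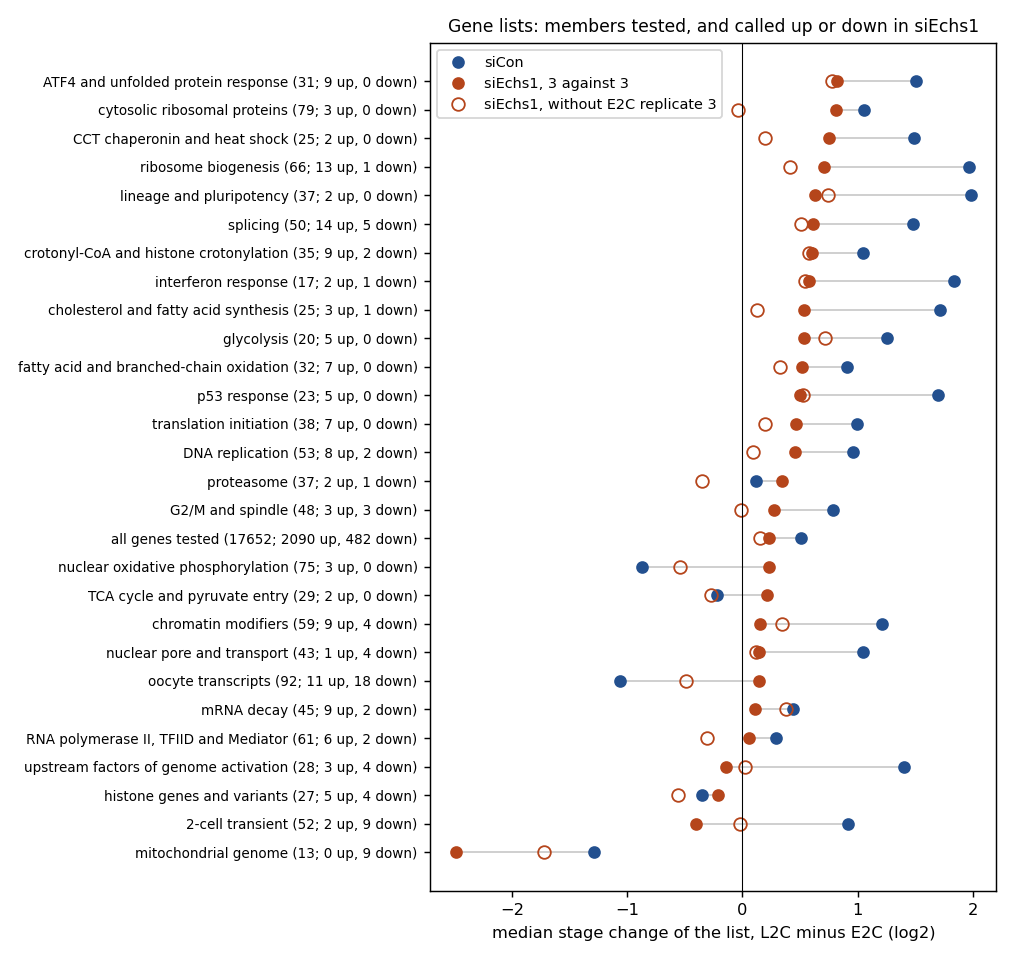
Median stage change (log2) of each gene list in siCon, in siEchs1 with 3 against 3 libraries and in siEchs1 without E2C replicate 3, with the number of members tested and called up or down in siEchs1 in brackets. The median of all genes was 0.23 in siEchs1 and 0.51 in siCon. Lists whose open and filled siEchs1 points lie far apart, such as ribosomal proteins (0.81 and -0.04), rest on E2C replicate 3.

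Medians of several lists changed sign without E2C replicate 3: ribosomal proteins, nuclear oxidative phosphorylation, oocyte transcripts, proteasome (0.35 to -0.35), TCA cycle (0.21 to -0.27), RNA polymerase II (0.06 to -0.30), G2/M (0.28 to -0.01) and the upstream factors (-0.15 to 0.02). After quantile normalization the medians of RNA polymerase II, chromatin modifiers, mRNA decay and nuclear pore genes were below 0, so no direction is given for these lists.

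Of 20 glycolysis genes 5 rose (25%) and 0 fell (0%), beside 11.8% and 2.73% of all genes, also without E2C replicate 3, against 13 and 1 in siCon. Pkm, pyruvate kinase, rose from 40.4, 101 and 75.6 to 350.4, 217 and 238 FPKM in siEchs1 (1.94 ± 0.35, adjusted p = 0.00378) and from 11.9, 13.2 and 13.5 to 255, 299 and 218 in siCon. The difference was -2.27 (adjusted p = 0.0124), with every E2C siEchs1 value above every E2C siCon value and overlapping levels at L2C. Pfkl, liver phosphofructokinase, rose by 1.81 ± 0.37 (adjusted p = 0.00718). Of 75 nuclear genes of oxidative phosphorylation 3 rose (4%) and 0 fell (0%), and the median was 0.23. Without E2C replicate 3 the counts were 4 (5.33%) and 14 (18.7%), beside 14.5% and 5.08% of all genes, and the median was -0.54. In siCon 6 rose (8%) and 23 fell (30.7%), beside 35.8% and 14.4% of all genes. Of 29 genes of the TCA cycle and pyruvate entry 2 rose (6.9%) and 0 fell (0%), with 3 and 0 without E2C replicate 3. Dlst, of the oxoglutarate dehydrogenase complex, had a change of 1.37 ± 0.39 (adjusted p = 0.0355, and 0.127 without L2C replicate 1). Of 32 genes of fatty acid and branched-chain oxidation, the pathway of Echs1, 7 rose (21.9%) and 0 fell (0%), with 7 and 1 without E2C replicate 3. Dbt, of the branched-chain ketoacid dehydrogenase, rose from 3.88, 3.76 and 2.8 to 26.8, 14.4 and 34.2 FPKM (2.47 ± 0.35, adjusted p = 0.00109).

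Srebf1 (chr11:60199089-60222581, minus strand), the transcription factor of fatty acid synthesis, was at 8.48, 8.52 and 3.5 FPKM in E2C siEchs1 and at 89.3, 60.4 and 60.7 at L2C. In siCon it was at 8.53, 1.97 and 3.59 and then 4.78, 5.53 and 4.46, so the L2C siEchs1 libraries stood above all others. The change was 3.24 ± 0.44 (adjusted p = 0.000866) and differed from siCon by 3.02 (adjusted p = 0.00963). Of the 25 genes of cholesterol and fatty acid synthesis 3 rose (12%) and 1 fell (4%) in siEchs1, beside 11.8% and 2.73% of all genes, with 5 and 0 without E2C replicate 3 and 16 and 3 in siCon. The risers beside Srebf1 were Mvd (1.84 ± 0.45, adjusted p = 0.0173, and 0.0816 without L2C replicate 1) and Lss (1.11 ± 0.31, adjusted p = 0.0321, and 0.129 without L2C replicate 2).

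Of 53 DNA replication genes 8 rose (15.1%) and 2 fell (3.77%), near the 11.8% and 2.73% of all genes, with 9 and 5 without E2C replicate 3 and 23 and 4 in siCon. Fen1, the flap endonuclease, rose from 8.45, 10.3 and 2.96 to 44.4, 38.7 and 45 FPKM (2.54 ± 0.37, adjusted p = 0.00128) beside 3.02 in siCon. Cdt1, a licensing factor, rose by 2.02 ± 0.36 (adjusted p = 0.00353), and Cdc25a by 1.74 ± 0.28 (adjusted p = 0.0021). Of 48 genes of G2/M and the spindle 3 rose (6.25%) and 3 fell (6.25%), with 3 and 4 without E2C replicate 3. Plk1, the mitotic kinase, rose from 34.5, 91.8 and 35.1 to 239, 168 and 217 FPKM (2.07 ± 0.40, adjusted p = 0.00558). The cyclin-dependent kinase subunits Cks2 and Cks1b fell, with changes of -1.56 ± 0.31 and -1.30 ± 0.29 (adjusted p = 0.00597 and 0.0113), beside -2.63 and -2.34 in siCon. Ccne1, cyclin E1, was at 8.96, 16 and 23.2 FPKM and then 28.9, 25.9 and 12.6 in siEchs1, against 30.7, 36.7 and 26 and 195, 192 and 289 in siCon, a difference of -2.33 (adjusted p = 0.018, and 0.052 without L2C siEchs1 replicate 3).

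Of 38 translation initiation factors 7 rose (18.4%) and 0 fell (0%), beside 11.8% and 2.73% of all genes, with 5 and 1 without E2C replicate 3. Eif4a1, the cap-complex helicase, rose from 196, 235 and 156 to 558, 527 and 452 FPKM (1.40 ± 0.28, adjusted p = 0.0059) beside 1.99 in siCon. Eif3b rose by 1.67 ± 0.36 (adjusted p = 0.00971), with a difference from siCon of -2.15 (adjusted p = 0.017, and 0.0509 without L2C siEchs1 replicate 3). Of 37 proteasome genes 2 rose (5.41%) and 1 fell (2.7%), and 3 and 7 without E2C replicate 3. Psme4 (PA200), a proteasome activator, fell from 39, 42.9 and 171 to 6.67, 15.3 and 8.76 FPKM (-2.65 ± 0.49, adjusted p = 0.00426). Of 43 genes of the nuclear pore and transport 1 rose (2.33%) and 4 fell (9.3%), with 7 and 4 without E2C replicate 3 and 22 and 5 in siCon. Rcc1, the exchange factor of Ran, rose by 2.26 ± 0.41 (adjusted p = 0.00396), and Nup98, a pore protein, fell from 127, 72.5 and 63.5 to 18.3, 29.1 and 29.2 FPKM (-1.70 ± 0.34, adjusted p = 0.00646). Of 61 genes of RNA polymerase II, TFIID and Mediator 6 rose (9.84%) and 2 fell (3.28%), with 9 and 11 without E2C replicate 3. Ercc2 (XPD), of TFIIH, rose by 2.73 ± 0.36 (adjusted p = 0.000752) and Gtf2a2, of TFIIA, fell, with a change of -1.77 ± 0.34 (adjusted p = 0.00542).

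The largest negative differences were of genes that rose in siCon, a change that is itself part of the difference. Cidea, a lipid droplet protein, was at 0, 0.05 and 0 FPKM in E2C siEchs1 and at 0.11, 0.14 and 0.04 at L2C, against 0.19, 0.05 and 0.95 and 33.7, 95.3 and 105 in siCon. No siEchs1 library reached 1 FPKM, and the difference was -5.61 (adjusted p = 0.000385). Slc5a11, an inositol transporter, was at 0.37, 0.65 and 0.34 FPKM in L2C siEchs1 against 40.2, 19.8 and 63.8 in L2C siCon, a difference of -5.19 (adjusted p = 0.00274). Celf4, an RNA-binding protein known from neurons, was at 1.04, 0.25 and 0.78 FPKM against 27.7, 31.5 and 39.1 (-4.85, adjusted p = 0.00582). Ajap1 and Impdh1, the latter an enzyme of guanine nucleotide synthesis, had differences of -5.54 and -4.42 (adjusted p = 0.00688 and 0.00663). Impdh1 was called to rise without E2C replicate 3 (1.94, adjusted p = 0.0139). Snai1, the transcription factor SNAIL, rose in siEchs1 from 7.5, 12.3 and 19.2 to 56.5, 42.4 and 35.1 FPKM (1.77 ± 0.39, adjusted p = 0.0111, and 0.0578 without L2C replicate 1), and in siCon from 3.76, 1.8 and 2.57 to 129.8, 207 and 258. Its difference was -3.96 (adjusted p = 0.00214).

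The largest positive differences were mostly of genes that fell in siCon, where that fall is again part of the difference. Sec61g (chr11:16500530-16508484, minus strand), a subunit of the protein translocon, was at 157, 108 and 54.3 FPKM in E2C siEchs1 and at 93, 108 and 83.8 at L2C, against 528, 698 and 681 and 19.9, 24.8 and 18.9 in siCon. The siEchs1 stages overlapped and lay between the siCon stages, and the difference was 4.79 (adjusted p = 0.000406). Iglc2, an immunoglobulin light chain gene, was at 63.6, 60.8 and 43.7 and then 22.8, 28.4 and 26.8 FPKM in siEchs1 and at 169, 389 and 301 and then 4.92, 6.31 and 1.45 in siCon (4.78, adjusted p = 0.00146). Ftx, a noncoding RNA of the X-inactivation centre, was below 1 FPKM in every siEchs1 library and at 135, 102 and 92 FPKM in E2C siCon (4.76, adjusted p = 0.000333). Dph6, which acts in making diphthamide, a modified residue of a translation factor, varied within groups: it was at 5.99, 154 and 6.95 FPKM in L2C siEchs1, and its difference was 5.98 (adjusted p = 0.0404, and 0.0907 without L2C siCon replicate 1). Il17b, a cytokine, was at 0, 27.4 and 11.4 FPKM and then 52.2, 79.4 and 55.5 in siEchs1 (3.14 ± 0.90, adjusted p = 0.0353, and 0.104 without L2C replicate 2), with a difference of 5.15 (adjusted p = 0.0192, and 0.0501 without E2C siCon replicate 3).

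Of 25 chaperonin and heat shock genes 2 rose (8%) and 0 fell (0%), beside 11.8% and 2.73% of all genes, and 5 and 2 without E2C replicate 3. Of 17 interferon response genes 2 rose (11.8%) and 1 fell (5.88%), and 2 and 2 without it. Bst2, a membrane protein that tethers virus particles, rose from 1.92, 1.15 and 5.73 to 62.7, 28.6 and 27.3 FPKM (3.43 ± 0.50, adjusted p = 0.00121).

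Markers of other cells that a tube could hold were followed too. Of 20 cumulus and granulosa markers 4 passed the filter and 0 were called. Without E2C replicate 3, 1 of the 4 rose (25%, beside 14.5% of all genes). Their summed level was 12.5 to 14.0 FPKM in E2C siEchs1 and 14.4 to 21.4 at L2C. The 10 blood markers summed to 4.78 to 10.7 and 5.81 to 30.6 FPKM, with 0 of 4 tested called. Of these 4, 1 rose (25%) without E2C replicate 3. The 18 sperm and testis markers summed to 101 to 261 and 104 to 136 FPKM, with 0 higher and 1 lower (Prm2, a sperm protamine) of 8 tested. The 14 oviduct markers summed to 15.6 to 25.9 FPKM at E2C and 50.4 to 132 at L2C. The 1 called member of 8 tested was Cldn4, a tight junction gene, at 104, 62.7 and 42.4 FPKM at L2C and 5.86, 15 and 0 at E2C. This call was lost without E2C replicate 3, where 0 oviduct markers were called. The defining oviduct marker Ovgp1 was below 1 FPKM in every siEchs1 library. The siCon libraries differed from these in part. Cumulus markers summed to 11 to 17.1 FPKM in E2C siCon and 107.5 to 149 at L2C, and blood markers to 63.2 to 82.6 and 138 to 157. Sperm markers summed to 93.7 to 131 and 65.4 to 111 FPKM in siCon. Oviduct markers summed to 28.3 to 35.4 and 215 to 287 FPKM, and 6 of 8 tested rose in siCon. Blood and oviduct sums thus lay apart between the arms at both stages, and cumulus sums at L2C. Cumulus sums at E2C and sperm sums at both stages overlapped. The part of these sums in the differences between the arms and in the stage changes was not tested.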

How the data were processed

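RNA of 12 siRNA-treated mouse 2-cell samples was analysed, 3 per siRNA and stage, with groups and replicate numbers taken from the sample titles. The authors deposited a table of FPKM per gene for each library. STAR, cutadapt 1.16 and the build mm10 are named in the submitters' processing notes. Counting tool, annotation and depth: not given in the sources used here. Symbols found more than once, or turned into dates in the tables, were left out. Genes at 1 FPKM or more in at least 3 of the 12 libraries were kept.

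A linear model on log2(FPKM + 1) with 1 mean per group was fitted with limma 3.58.1 (R 4.3.3), with a trended and robust variance, over all 17652 genes. The contrasts were L2C minus E2C in siEchs1, the same in siCon, and their difference, each with Benjamini-Hochberg adjustment. All 12 libraries shared 1 estimate of the spread. The model was tested on simulated data. Coordinates are those of GENCODE M21 (GRCm38, the assembly of mm10), matched by symbol.

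Named genes were Echs1, the 6 largest called changes per direction in siEchs1 (with and without E2C replicate 3) and in siCon, the 5 largest differences per direction, up to 4 called members of each gene list, and a list of genes of known role. The largest changes had to have a group mean of at least 5 FPKM and, for stage changes, libraries that do not overlap. Cldn4 and Prm2 were named, and the 4 promoters chosen, after their values were seen. The comparison, the members and the lists were chosen with earlier results of these data known. Alternatives covered the filter, pseudocount, scaling, variance model, replicate block and each library left out. Some named genes are not reported here.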

Additional observations from a re-analysis of the deposited data

Results flagged for a closer look

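The stage change differed between the arms, by the limma test of the difference itself, for 2042 genes with a lower change in siEchs1 than in siCon and 997 with a higher one. Among the genes with the largest differences, siEchs1 minus siCon on the log2 scale, the negative ones were Cidea (-5.61), Ajap1 (-5.54), Slc5a11 (-5.19), Celf4 (-4.85) and Impdh1 (-4.42). The positive ones were Dph6 (5.98), Il17b (5.15), Sec61g (4.79), Iglc2 (4.78) and Ftx (4.76). Dph6 and Il17b each lost the call without 1 library (adjusted p = 0.0907 without L2C siCon replicate 1 and 0.0501 without E2C siCon replicate 3). The other 8 kept it when each of the 12 libraries was left out in turn.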

How the results depend on the processing

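With 1 library left out at a time, siEchs1 rises numbered 1015 to 2556 and falls 159 to 897. The siCon rises numbered 5276 to 7256 and the falls 1972 to 3276. Higher differences numbered 460 to 1517 and lower ones 831 to 2772. Of the genes that rose in siCon by at least 1, 742 to 1928 also rose in siEchs1, and of those that fell 95 to 515 also fell. The difference in mitochondrial share was -5.03 to -0.707 percentage points. Quantile normalization gave 1075 rises and 785 falls in siEchs1, 4192 and 4243 in siCon, 1600 higher differences, and 647 and 468 shared rises and falls. The 6 siEchs1 libraries fitted alone gave 516 rises and 50 falls, with 407 and 34 shared. No filter on low values gave 242 falls, 589 higher and 1280 lower differences, and 945 and 123 shared. A pseudocount of 0.1 gave 1073 lower differences. A minimum log2 change of 2 left 966 and 143 shared. Rescaling without mitochondrial and ribosomal RNA gave 149 shared falls, and rescaling every library to the same total gave 135. Without E2C siEchs1 replicate 3, quantile normalization gave 1636 rises and rescaling without mitochondrial and ribosomal RNA 517 falls; these combinations were chosen after seeing the data. Rpl19 and Oas1h, not called with all libraries (0.06 and 0.40), had changes of -1.28 and -0.89 without that library and of 0.85 and 1.08 without E2C siEchs1 replicate 1. The cause of these changes was not tested. Over 188 named stage changes, 3852 of 4294 values stayed on the same side of the threshold, 395 lost the call, 45 gained it and 2 reversed. Depth is unknown, so what it limits could not be stated.

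A replicate block by title numbers gave 1826 rises and 387 falls in siEchs1, 6146 and 2439 in siCon, and 826 higher and 1629 lower differences. By the numbers in the file names it gave 1826 and 395 in siEchs1. Deviations of samples with the same number correlated at -0.043 to -0.006, so the numbers do not pair the samples.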
